A study of Mus musculus with 2 samples.

Results

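Immunoglobulin-type adhesion molecules are cell-surface proteins that carry immunoglobulin domains and bind their own kind or other receptors on neighbouring cells and matrix. The genes described here are Mcam, Alcam, L1cam, Ncam1, Bcam, Cadm1, F11r, Jam3, Icam1 and Vcam1, chosen by name, 10 of the 23284 gene symbols measured. Their RNA was measured by sequencing cultured mouse melanoma cells, with 1 library of B16/BL6 and 1 library of B16, in a search for metastasis-related genes. B16/BL6 is a more invasive line that was selected from the melanoma line B16, and the labels give C57BL/6 as the strain of both. B16/BL6 was grown in RPMI and B16 in DMEM, both with fetal bovine serum, so any effect of the line and any effect of the medium cannot be told apart. Each line has 1 library, so there is no replicate error and no test between the lines.

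These molecules hold cells together through weak bonds formed in large numbers, and many also pass signals to the cytoskeleton through short cytoplasmic tails. In the pigment lineage several are made by neural crest cells and by melanoma cells, and human MCAM, also called CD146 or MUC18, was named as a melanoma antigen whose amount rises with tumour progression. ICAM1 and VCAM1 are ligands for leukocyte integrins and are induced by inflammatory cytokines through NF-kB.

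Levels are given in FPKM, which scales fragments to transcript length and library size, so that they can be compared between genes per length. Differences are log2(FPKM + 1) values, B16/BL6 minus B16, and a difference of 2-fold or more on this scale was called higher or lower. Calls were made for the 10709 genes that reached 1 FPKM in either library, named expressed genes below. The pseudocount of 1 understates the change of low genes.

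The marker genes of melanoma cells other than Tyr were abundant in both libraries, and those of other cell types were near 0. The 7 melanoma markers (Pmel, Mlana, Tyrp1, Dct, Tyr, Sox10 and Mitf) summed to 18525 FPKM in B16/BL6 and 12082 FPKM in B16. Tyr was at 164 FPKM in B16/BL6 and 10.6 FPKM in B16. Tyr and Pmel were called higher in B16/BL6, and the other 5 lay within 2-fold. The 8 endothelial markers summed to 0.0191 FPKM in B16/BL6 and 0.0719 FPKM in B16, with Cdh5, Kdr, Tek, Tie1, Emcn and Cldn5 listed at 0 in both. The 8 leukocyte markers summed to 4.64 FPKM in B16/BL6 and 2.90 FPKM in B16, of which Lyz2 alone made up 3.96 FPKM in B16/BL6 and 2.56 FPKM in B16, and Cd3e was listed at 0 in both. The 5 epithelial markers summed to 0.0976 FPKM in B16/BL6 and 0.108 FPKM in B16, and the 6 fibroblast markers to 0.729 FPKM in B16/BL6 and 0.532 FPKM in B16. Total read counts are not given in the files. From the size of the smallest values, which are multiples of what 1 fragment is worth, the libraries held roughly 11100000 fragments in B16/BL6 and 10000000 in B16.

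The promoter windows below are shown for Mcam, the gene with the largest difference toward B16 among those above 0 in both libraries, for Bcam, the one with the largest difference toward B16/BL6, for F11r, which was listed at 0 in B16/BL6, and for Icam1, a classical NF-kB target that was near 0 in both. Each is the 250 bases before the RefSeq start on GRCm38.p6, the assembly that mm10 names, read 5′ to 3′ on the strand of the gene. Of the 10 genes, 6 had an entry in the RefSeq promoter table. Capitals mark matches on either strand to the GC box (GGGCGG), the AP-2 motif (GCCNNNGGC), the cAMP response element (TGACGTCA) and a kappa-B motif (GGAAATTCC). The windows are those at chr9:44134408-44134657 on the plus strand (Mcam), chr7:19770533-19770782 on the minus strand (Bcam), chr1:171437311-171437560 on the plus strand (F11r) and chr9:21015690-21015939 on the plus strand (Icam1).
Mcam: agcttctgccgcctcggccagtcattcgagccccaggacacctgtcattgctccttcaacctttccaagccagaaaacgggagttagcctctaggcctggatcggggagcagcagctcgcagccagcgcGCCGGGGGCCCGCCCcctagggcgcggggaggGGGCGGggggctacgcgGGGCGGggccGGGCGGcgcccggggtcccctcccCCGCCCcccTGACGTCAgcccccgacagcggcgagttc
Bcam: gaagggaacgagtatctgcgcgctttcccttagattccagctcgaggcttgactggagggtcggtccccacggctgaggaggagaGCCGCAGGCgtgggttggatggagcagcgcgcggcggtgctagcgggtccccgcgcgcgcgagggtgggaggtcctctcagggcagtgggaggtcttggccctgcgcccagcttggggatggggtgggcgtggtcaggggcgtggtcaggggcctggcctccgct
F11r: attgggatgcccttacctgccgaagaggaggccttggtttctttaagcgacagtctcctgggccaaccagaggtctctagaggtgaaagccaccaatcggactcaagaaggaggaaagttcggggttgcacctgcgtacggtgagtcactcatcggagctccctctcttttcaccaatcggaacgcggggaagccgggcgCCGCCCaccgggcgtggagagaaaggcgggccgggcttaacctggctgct
Icam1: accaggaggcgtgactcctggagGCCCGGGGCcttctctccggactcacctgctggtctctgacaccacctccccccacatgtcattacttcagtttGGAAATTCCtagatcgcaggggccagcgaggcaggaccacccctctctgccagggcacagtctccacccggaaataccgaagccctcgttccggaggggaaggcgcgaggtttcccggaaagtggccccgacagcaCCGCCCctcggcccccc

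The Mcam window was rich in G and C, at 73.6%, against a median of 52% over the windows of 27025 genes, expressed or not. The windows of Bcam (70%), Alcam (69.2%), L1cam (69.6% and 63.2%, by start), Icam1 (65.2%) and F11r (60%) were above that median too. The Mcam window held 5 GC boxes, and 1.99% of the windows of the 27025 genes held as many or more. It also held 1 match to the AP-2 motif, from base 121 to base 113 before the start and next to a GC box without overlap, and 1 full cAMP response element from base 29 to base 22. Of all windows, 13.6% held the AP-2 motif and 1.62% the cAMP response element. AP-2, CREB and ATF1 have been described as regulators of MCAM in human melanoma cells. In GENCODE M21 some Mcam transcripts begin inside this window. The Bcam window held 1 AP-2 match and no GC box, and the F11r window held 1 GC box, a motif found in 32.9% of all windows. The Icam1 window held a kappa-B motif from base 153 to base 145, and 0.292% of all windows held these letters. That share is for this exact string only, since other forms of the kappa-B motif were not searched. The Icam1 window also held 1 GC box, 1 AP-2 match and 1 match to the E-box CATGTG, found in 12.2% of windows, and none of the printed windows held TATAAA, found in 12.97%. These matches are letters in a window and were not tested as binding sites.

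Mcam was the most abundant of the genes in B16 and lay well below that level in B16/BL6. It encodes the melanoma cell adhesion molecule, which binds its own kind on other cells as well as laminin and galectins, and lies on chromosome 9 from 44134658 to 44142727. Its level was 37.5 FPKM in B16/BL6 and 204 FPKM in B16, a log2 difference of -2.41 with the pseudocount. Without it the FPKM was 5.43-fold lower in B16/BL6. By the approximate depths, about 1200 fragments in B16/BL6 and 5700 to 6100 in B16 lay behind these values. Among the 10709 expressed genes, Mcam ranked 2663rd by level in B16/BL6 and 369th in B16. Of the 1067 genes that reached 100 FPKM in either library, it had the 8th lowest log2 difference, and 1.78% of those genes were at least 2-fold lower. The direction and the 2-fold call of Mcam held in the 5 alternatives of scaling and pseudocount, with log2 differences from -2.59 to -2.30. In RNA from a whole culture, fewer cells that express a gene and less RNA per cell cannot be told apart.

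**Figure D1:**
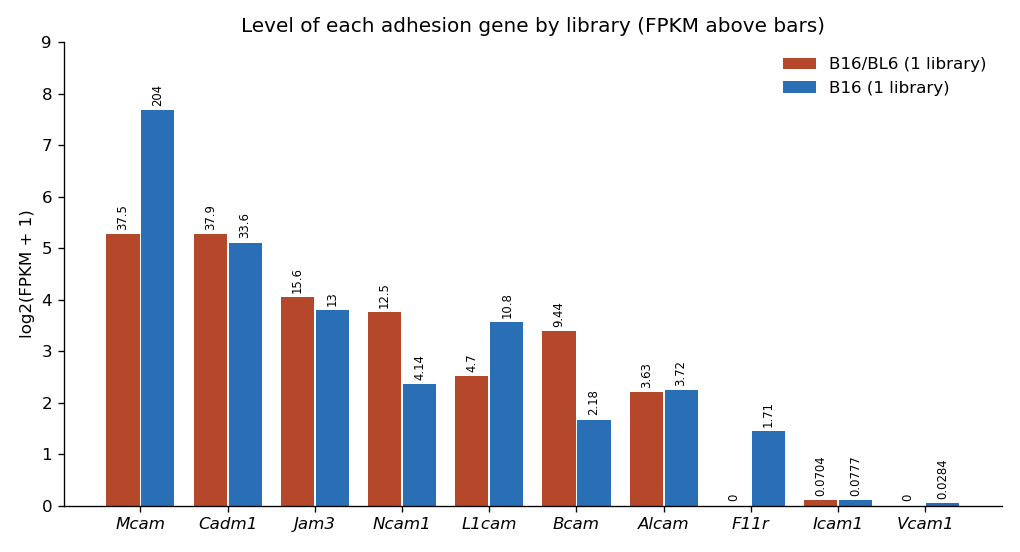
Levels of the 10 adhesion genes as log2(FPKM + 1), with B16/BL6 left and B16 right in each pair, and the FPKM printed above each bar, from 1 library per line. Mcam stands at 37.5 FPKM in B16/BL6 and 204 FPKM in B16, Ncam1 and Bcam are the genes with a clearly taller B16/BL6 bar, and Icam1 and Vcam1 are near 0.

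L1cam was also lower in B16/BL6. It encodes a neural adhesion molecule that binds its own kind and integrins and is tied to the cytoskeleton by ankyrins, and lies on the X chromosome from 73853778 to 73880838. Its level was 4.70 FPKM in B16/BL6 and 10.8 FPKM in B16, a log2 difference of -1.05, just past 2-fold. About 270 and 550 fragments lay behind the B16/BL6 and B16 values.

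F11r, which encodes the junctional adhesion molecule JAM-A of tight junctions (chromosome 1, 171437561 to 171464593), was listed at 0 in B16/BL6 and at 1.71 FPKM in B16, where the value rested on about 43 fragments. Since a listed 0 can stand for an estimate that failed, no ratio is given. F11r was 1 of 43 genes that reached 1 FPKM in B16 and were listed at 0 in B16/BL6, among 10413 genes that reached that level in B16. It was counted as lower, although it reached the minimum through B16 alone.

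Ncam1 and Bcam were higher in B16/BL6. Ncam1 encodes the neural cell adhesion molecule, also known as CD56, which binds its own kind and the fibroblast growth factor receptor (chromosome 9, 49502129 to 49799393). Its level was 12.5 FPKM in B16/BL6 and 4.14 FPKM in B16, a log2 difference of 1.39 with the pseudocount and a plain FPKM ratio of 3.02. Bcam encodes the Lutheran glycoprotein, a receptor for the laminin alpha-5 chain (chromosome 7, 19756138 to 19770532). Its level was 9.44 FPKM in B16/BL6 and 2.18 FPKM in B16, a log2 difference of 1.71 with the pseudocount and a ratio of the FPKM values themselves of 4.33. About 250 fragments in B16/BL6 and 53 in B16 lay behind the Bcam values. For Ncam1 the estimate was 360 to 840 in B16/BL6 and 110 to 250 in B16, depending on the transcript, since its annotated transcripts run from 2.57 to 6.05 kb. Values of single isoforms were not analysed here.

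Cadm1, Jam3 and Alcam stood at much the same level in both libraries. Cadm1, which encodes a synaptic and epithelial adhesion molecule known as a tumour suppressor in lung cancer (chromosome 9, 47530170 to 47862280), was at 37.9 FPKM in B16/BL6 and 33.6 FPKM in B16, a log2 difference of 0.17. Jam3, which encodes the junctional adhesion molecule JAM-C (chromosome 9, 27097384 to 27155421), was at 15.6 FPKM in B16/BL6 and 12.95 FPKM in B16, a log2 difference of 0.25. Alcam, also known as CD166, encodes an adhesion molecule that binds its own kind and the lymphocyte receptor CD6 (chromosome 16, 52248996 to 52453081). It was at 3.63 FPKM in B16/BL6 and 3.72 FPKM in B16, a log2 difference of -0.03, which was 0.01 with the difference centred at the median of its chromosome. Between 230 and 1900 fragments lay behind each of these values, and all 3 genes stayed within 2-fold in every alternative of scaling and pseudocount. With no replicate, neither these differences nor the larger ones of the other genes can be told from error.

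Icam1 and Vcam1 were close to 0 in both libraries and did not reach 1 FPKM. Icam1, the ligand of the leukocyte integrin LFA-1 (chromosome 9, 21015940 to 21028814), was at 0.0704 FPKM in B16/BL6 and 0.0777 FPKM in B16. The ratio of these values, 0.906, is the one that 155 of the 379 genes below 0.1 FPKM in both libraries shared within 0.5%, and it stands for equal numbers of fragments, about 2 in each library. Vcam1, the ligand of the integrin VLA-4 (chromosome 3, 116110020 to 116129688), was listed at 0 in B16/BL6 and at 0.0284 FPKM in B16, about 1 fragment. No difference in either gene was detectable at this depth.

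Of the 10 genes, 2 were called higher in B16/BL6 (Ncam1 and Bcam), 3 were called lower (Mcam, L1cam and F11r), 3 lay within 2-fold and 2 did not reach the minimum. Over all 10709 expressed genes, 3.31% were called higher, 3.16% lower and 6.46% in either direction. The genes were chosen with earlier results of these data known, so their count is a description of these genes and nothing further is read from it. The median log2 difference of the 8 genes at the minimum was 0.07, or 0.17 without F11r, against 0.0053 over all genes. Raising the pseudocount to 5 FPKM left Mcam as the gene at least 2-fold lower and Bcam as the gene at least 2-fold higher. Bcam was then only just past 2-fold, at 1.01, with Ncam1 at 0.94 and L1cam at -0.70.

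**Figure D2:**
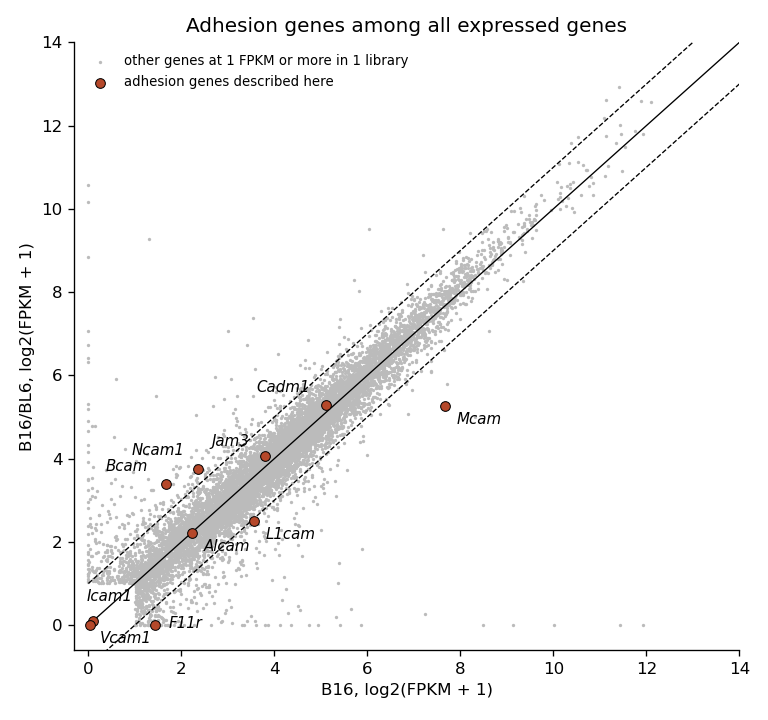
Level in B16/BL6 against level in B16 for genes that reached 1 FPKM in either library (grey) and for the 10 adhesion genes (red), both axes as log2(FPKM + 1). The solid line marks equal levels and the dashed lines 2-fold. Mcam, L1cam and F11r lie below the lower line, L1cam only just and F11r at 0 in B16/BL6. Ncam1 and Bcam lie above the upper line, and Cadm1, Jam3 and Alcam near the solid line.

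The order of the levels differed between the lines. In B16/BL6 the order was Cadm1, Mcam, Jam3, Ncam1, Bcam, L1cam and Alcam, with Icam1 near 0 and F11r and Vcam1 at 0. In B16 it was Mcam, Cadm1, Jam3, L1cam, Ncam1, Alcam, Bcam and F11r, with Icam1 and Vcam1 near 0. Cadm1 and Mcam were almost level in B16/BL6, where the ratio of Mcam to Cadm1 was 0.991, against 6.07 in B16. The ratio of Mcam to Ncam1 was 2.998 in B16/BL6 and 49.2 in B16. The ratio of Ncam1 to L1cam, both neural adhesion genes, was 2.66 in B16/BL6 and 0.383 in B16. The ratio of Cadm1 to Jam3 was 2.42 in B16/BL6 and 2.59 in B16. These ratios are taken within a library and do not depend on how the libraries were scaled. Without replicates, genes that stand next to each other in either order cannot be said to differ.

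Summed over the 10 genes, the level was 121 FPKM in B16/BL6 and 273 FPKM in B16. Mcam made up 30.9% of this sum in B16/BL6 and 74.6% in B16. Without Mcam the sums were 83.9 FPKM in B16/BL6 and 69.2 FPKM in B16. Cadm1 made up 31.2% of the sum in B16/BL6 and 12.3% in B16. Ncam1 made up 10.3% in B16/BL6 and 1.52% in B16, and Bcam 7.78% in B16/BL6 and 0.8% in B16.

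**Figure D3:**
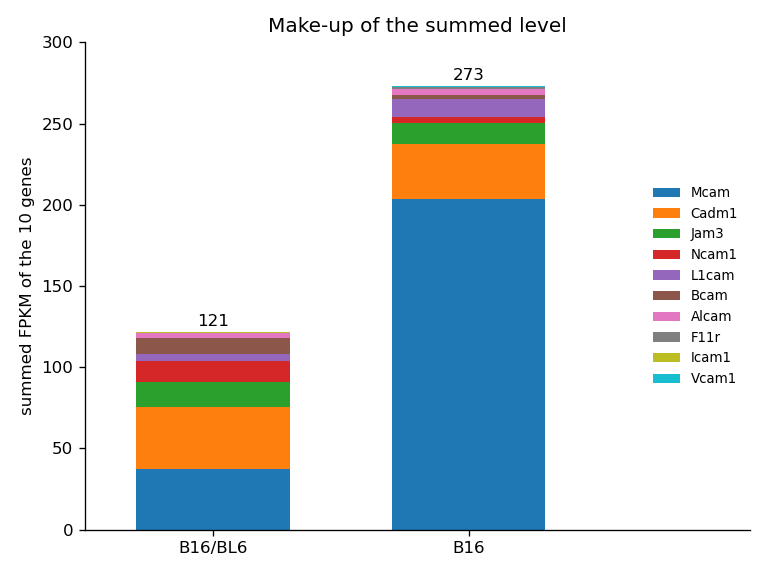
Summed FPKM of the 10 adhesion genes in B16/BL6 (left, 121 FPKM) and B16 (right, 273 FPKM), with each gene as a coloured segment, from 1 library per line. Without the Mcam segment at the base the bars would stand at 83.9 FPKM in B16/BL6 and 69.2 FPKM in B16.

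**Figure D4:**
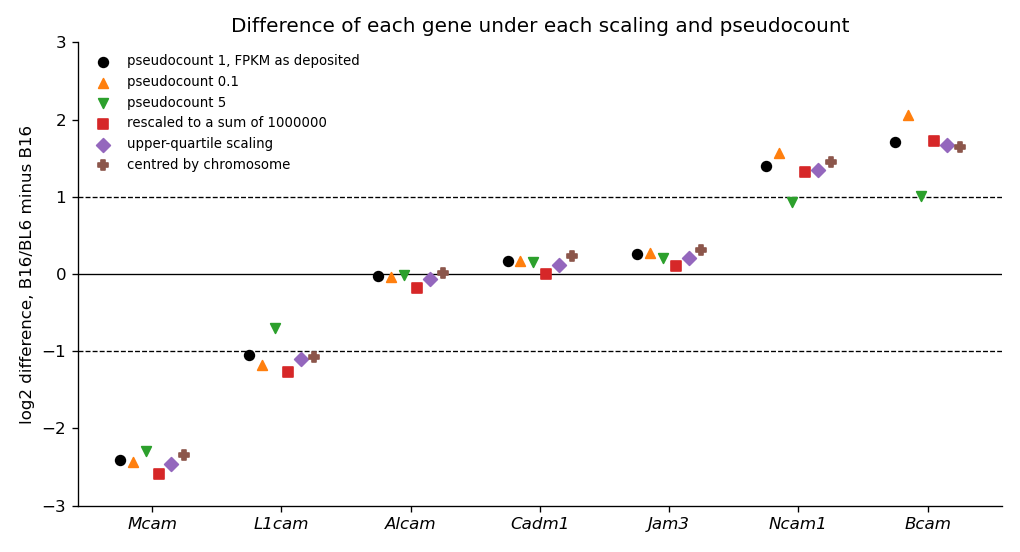
Log2 difference, B16/BL6 minus B16, of the 7 adhesion genes at 1 FPKM or more and above 0 in both libraries, as deposited with a pseudocount of 1 (black circles) and under 5 alternatives. Dashed lines mark 2-fold. Mcam and Bcam keep their side of the line throughout, Bcam only just with a pseudocount of 5, at 1.01. L1cam and Ncam1 fall inside the line with that pseudocount.

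The counts of calls in this list and those below stand beside 3.31% called higher and 3.16% called lower over all expressed genes. Across 60 other immunoglobulin-type adhesion genes, 24 were listed at 0 in both libraries and 16 were expressed. Of these 16, 2 were called higher in B16/BL6, 0 lower and 14 lay within 2-fold, with a median log2 difference of 0.22, or -0.02 on the scale where both libraries sum to 1000000. The higher genes were Sdk1, which encodes sidekick-1, a synaptic adhesion molecule, at 11.4 FPKM in B16/BL6 and 2.70 FPKM in B16, and Icam4, an erythroid relative of Icam1, at 3.76 FPKM in B16/BL6 and 1.04 FPKM in B16. Bsg, which encodes basigin, an inducer of matrix metalloproteases and a chaperone of lactate transporters, was the most abundant, at 707 FPKM in B16/BL6 and 366 FPKM in B16, a log2 difference of 0.95. Igsf11 was at 2.997 FPKM in B16/BL6 and 6.84 FPKM in B16, a log2 difference of -0.97 that passed 2-fold with a pseudocount of 0.1 and under either rescaling of the libraries. Cadm4 was at 66.5 FPKM in B16/BL6 and 38.5 FPKM in B16, and Nrcam, of the L1 family, at 33.7 FPKM in B16/BL6 and 30.4 FPKM in B16. Jam2 was below 1 FPKM in both, at 0.356 FPKM in B16/BL6 and 0.963 FPKM in B16, as were Icam2, Icam5, Ncam2 and Pecam1.

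Of 26 extracellular binding partners, 14 were expressed, with a median log2 difference of -0.03. Of these 14, 3 were called higher in B16/BL6, 1 lower and 10 lay within 2-fold. Over all expressed genes, 3.31% were called higher and 3.16% lower. Among partners of Mcam, Lgals3, the galectin-3 gene, was at 31.1 FPKM in B16/BL6 and 316 FPKM in B16, a log2 difference of -3.30. Lgals1, the galectin-1 gene, was at 2890 FPKM in B16/BL6 and 2967 FPKM in B16. Lama4, which encodes the alpha-4 laminin chain, was at 11.7 FPKM in B16/BL6 and 17.2 FPKM in B16. Pdgfrb, a receptor that pairs with MCAM in pericytes, was at 7.43 FPKM in B16/BL6 and 0.104 FPKM in B16. Of the 6 fibroblast markers, Pdgfra was at 0.619 FPKM in B16/BL6 and 0.371 FPKM in B16, Col1a1 at 0.110 FPKM in B16/BL6 and 0.161 FPKM in B16, and Col3a1, Dcn, Lum and Thy1 were listed at 0 in both. The part of other cells in the Pdgfrb difference was not tested. Kdr, the endothelial receptor that pairs with MCAM, was listed at 0 in both. S100a8, whose protein binds MCAM, was at 2.68 FPKM in B16/BL6 and 0.492 FPKM in B16. S100a9, of the same list, was within 2-fold, at 2.64 FPKM in B16/BL6 and 2.27 FPKM in B16, a log2 difference of 0.16. Pdgfrb and S100a8 were counted as higher, although both reached the minimum of 1 FPKM through B16/BL6 alone.

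Lama5, which encodes the laminin chain bound by Bcam, was at 2.32 FPKM in B16/BL6 and 4.08 FPKM in B16. For Ncam1, the receptor gene Fgfr1 was at 1.09 FPKM in B16/BL6 and 0.0755 FPKM in B16, a ratio of 14.4 that stayed under 2-fold with the pseudocount, at a log2 difference of 0.96. It passed 2-fold with a pseudocount of 0.1 and after rescaling to a sum of 1000000. The polysialyltransferase genes St8sia2 and St8sia4, whose products modify NCAM, were listed at 0 in both libraries. Of the integrin genes whose products bind VCAM1, Itgb7 was near 0, at 0.0998 FPKM in B16/BL6 and 0 in B16, and the others listed were expressed. Itga4 was at 23.1 FPKM in B16/BL6 and 17.1 FPKM in B16, Itgb1 at 133 FPKM in B16/BL6 and 176 FPKM in B16, and Itga9 at 9.50 FPKM in B16/BL6 and 2.52 FPKM in B16. The leukocyte integrin genes that bind Icam1 were below 1 FPKM, with Itgal at 0.0164 FPKM in B16/BL6 and 0.0542 FPKM in B16 and Itgb2 at 0.433 FPKM in B16/BL6 and 0.102 FPKM in B16. Crtam, the lymphocyte partner of Cadm1, was listed at 0 in both, and Cd6, the partner of Alcam, was at 0 in B16/BL6 and 0.0334 FPKM in B16.

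Of 21 cytoplasmic partners, after 1 gene was left out with its values known, 17 were expressed, and 0 were called higher in B16/BL6, 1 lower and 16 within 2-fold, with a median of -0.22. The lower gene was Rapgef2, which encodes an activator of Rap GTPases that has been placed below JAM-A in epithelial cells, at 12.3 FPKM in B16/BL6 and 46.4 FPKM in B16. The scaffold genes Tjp1, Pard3 and Afdn were within 2-fold. Rap1b was at 126 FPKM in B16/BL6 and 80.0 FPKM in B16, and Cask, which encodes a scaffold that binds Cadm proteins, at 2.69 FPKM in B16/BL6 and 4.23 FPKM in B16. Actn4, which encodes a crosslinker of actin filaments, was at 160.3 FPKM in B16/BL6 and 223 FPKM in B16. The ezrin, radixin and moesin genes, whose products link such tails to actin, were within 2-fold, with Msn at 271 FPKM in B16/BL6 and 235 FPKM in B16.

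**Figure D5:**
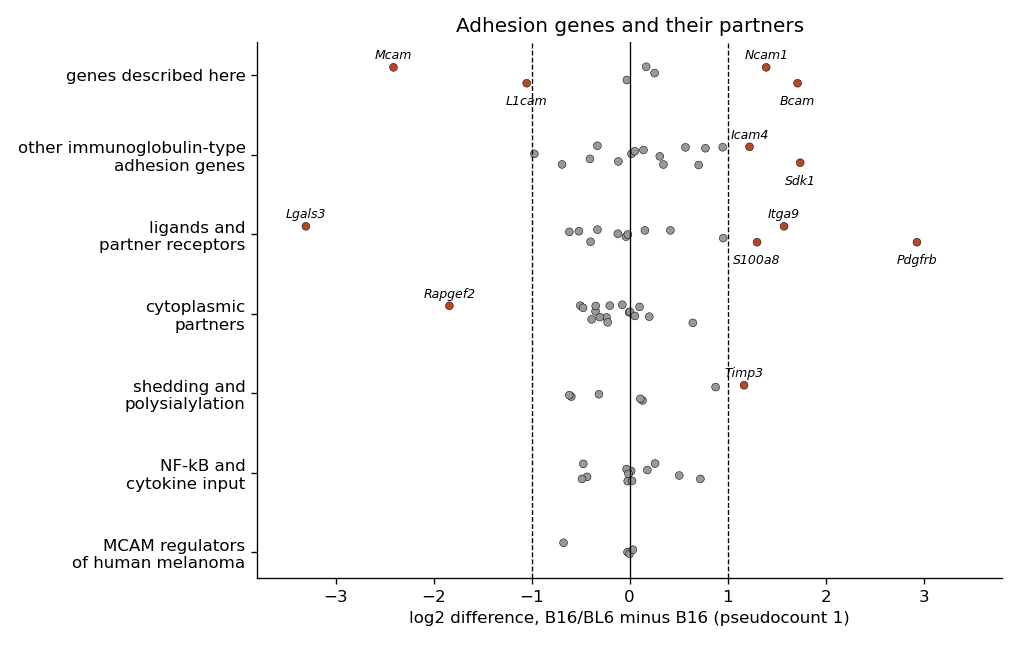
Log2 difference, B16/BL6 minus B16, of expressed genes, as 1 point per gene, for the adhesion genes described here (F11r, listed at 0 in B16/BL6, is left out) and for 6 lists of related genes. Points past the dashed 2-fold lines are red and named; the vertical scatter within a list carries no value.

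Of 10 genes of shedding and polysialylation, 7 were expressed, with 1 called higher in B16/BL6, 0 lower and a median of 0.11, which was -0.05 after rescaling to a sum of 1000000 and -0.03 with centring by chromosome. The higher gene was Timp3, an inhibitor of the ADAM proteases that release adhesion molecules from the surface, at 10.3 FPKM in B16/BL6 and 4.01 FPKM in B16. It fell inside 2-fold with centring by chromosome and with a pseudocount of 5. Adam10, which encodes a sheddase of the L1cam protein, was at 51.1 FPKM in B16/BL6 and 77.7 FPKM in B16, a log2 difference of -0.60. Adam17, another protease gene of this list, was at 28.0 FPKM in B16/BL6 and 25.4 FPKM in B16, a log2 difference of 0.13. The membrane metalloprotease gene Mmp14 was at 226 FPKM in B16/BL6 and 123 FPKM in B16, and Rhbdf2, whose product supports the protease ADAM17, at 6.14 FPKM in B16/BL6 and 9.94 FPKM in B16.

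Icam1 and Vcam1 respond to NF-kB and cytokine input. Of 18 genes of this input and its targets, 12 were expressed, with 0 called higher in B16/BL6, 0 lower and a median of 0.0026. The other 6 did not reach 1 FPKM. Among them were the NF-kB target genes Tnfaip3, at 0.643 FPKM in B16/BL6 and 0.752 FPKM in B16, and Birc3, at 0.725 FPKM in B16/BL6 and 0.661 FPKM in B16. Ccl2, a chemokine gene, was at 0.275 FPKM in B16/BL6 and listed at 0 in B16, and Il1r1, the interleukin-1 receptor gene, was listed at 0 in both. Of the expressed genes of this list, the chemokine gene Cxcl10 was at 26.5 FPKM in B16/BL6 and 26.7 FPKM in B16. Nfkb1 was at 31.7 FPKM in B16/BL6 and 18.8 FPKM in B16. Nfkbia, which encodes an inhibitor of NF-kB, was at 13.3 FPKM in B16/BL6 and 19.1 FPKM in B16. Ifngr1, a chain of the interferon-gamma receptor, was at 11.7 FPKM in B16/BL6 and 7.95 FPKM in B16, and the interferon-induced factor Irf1 at 8.55 FPKM in B16/BL6 and 12.2 FPKM in B16. The endothelial selectin genes Sele and Selp were listed at 0 in both.

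The 4 genes of transcription factors described for MCAM in human melanoma were all within 2-fold, with a median of -0.01. Tfap2a, which encodes AP-2 alpha, reported as a repressor of MCAM in human melanoma cells, was at 32.0 FPKM in B16/BL6 and 51.6 FPKM in B16, a log2 difference of -0.67. Creb1 was at 9.83 FPKM in B16/BL6 and 10.0 FPKM in B16, Atf1 at 21.5 FPKM in both, and Sp1 at 19.2 FPKM in B16/BL6 and 18.7 FPKM in B16. These are RNA levels, and the activity of the factors was not measured.

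By the levels in both libraries, the genes nearest to Mcam were Aes, Lgals3 and Tnfrsf12a. The measure was the distance over the 2 values of log2(FPKM + 1), which with 2 libraries is a description only. Aes, which encodes a Groucho-family corepressor, was at 54.3 FPKM in B16/BL6 and 208 FPKM in B16, at a distance of 0.52. Tnfrsf12a, which encodes the TWEAK receptor, was at 49.3 FPKM in B16/BL6 and 124 FPKM in B16, at a distance of 0.81, and Lgals3 lay at a distance of 0.68.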

How the data were processed

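The values are FPKM as deposited, per the file headers, with 1 library each of B16/BL6 and B16. Libraries were made from total RNA with a stranded mRNA kit, per the labels' protocols. Cufflinks 2.2.1, SAMtools 0.1.19, TopHat2 2.0.13 and Bowtie2 2.2.3 and the mm10 build are listed, with no roles, per the submitters' processing notes. The sources used here do not give the annotation, the scaling or the strand setting. Antisense genes of GENCODE M21 overlap 36.2% of the exon bases of Jam3, 11.7% of those of Icam1 and under 5% of those of the other genes.

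Differences used a pseudocount of 1 and a minimum of 1 FPKM in either library, and were called at 2-fold. With 1 library per line no test was possible. Alternatives were pseudocounts of 0.1 and 5, no minimum and a minimum of 5 FPKM, a sum of 1000000 per library, upper-quartile scaling and centring by chromosome. For the related lists these were added after seeing the data. The procedure was tested on simulated data. Fragment numbers are approximate. They come from medians of 1/(FPKM x length) over genes below 0.2 FPKM with 1 annotated transcript above 1500 bases, taking estimates of 8000000 to 14000000 fragments (75 genes in B16/BL6, 80 in B16), and no interval was derived. Positions came from RefSeq (GRCm38.p6), by symbol or by a synonym of a single gene, for 23040 symbols.

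The adhesion genes and the lists were chosen with earlier results of these data known. A gene of the cytoplasmic list was left out after its values were seen and is not reported here. Named were all 10 genes, up to 4 genes per list with the largest differences and the 3 genes nearest to Mcam. Of the direct binding partners and the nearest expressed neighbours of genes on a shared chromosome, only some were named. Cadm4, Nrcam, Msn, Pdgfra, Col1a1, Cxcl10, S100a9 and Adam17 were named after their values were seen. So were the genes named only as within 2-fold, below 1 FPKM or at 0, and Pvr, Pvrl2 and Nfkbiz of the closing section. Python 3.11.15, numpy 2.4.6 and pandas 2.3.3 were used.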

Additional observations from a re-analysis of the deposited data

How the results depend on the processing

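Mcam, Bcam, Cadm1, Jam3 and Alcam kept their side of the 2-fold line in all 5 alternatives of scaling and pseudocount. Bcam did so narrowly with a pseudocount of 5 FPKM, at a log2 difference of 1.01. With a pseudocount of 5 FPKM, 1 adhesion gene was called higher in B16/BL6 and 1 lower, and over all genes 151 were higher and 118 lower. Fewer low genes can pass 2-fold with a larger pseudocount, by its construction. With a pseudocount of 0.1, 492 genes were higher and 511 lower, and with a minimum of 5 FPKM, 246 were higher and 212 lower, in each case against 354 and 338. Rescaling each library to a sum of 1000000 moved the median of all genes to -0.16 on the log2 scale and gave 369 genes higher and 583 lower, against 354 and 338. The adhesion genes had the same counts on that scale, 2 higher and 3 lower. Their median log2 difference was -0.088 on that scale and 0.21 with a minimum of 5 FPKM, which Alcam and F11r did not pass. Bcam and Ncam1 passed that minimum through B16/BL6 alone, and L1cam through B16 alone. Among the related lists, Rapgef2, Lgals3, Pdgfrb and Sdk1 kept their calls under the 5 alternatives of scaling and pseudocount, chosen for the lists after seeing the data, while Icam4, Itga9 and S100a8 lost theirs with a pseudocount of 5. No paired analysis was possible because each line had 1 library, and for the same reason no library could be left out.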

Other observations

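Of the 10 adhesion genes, 5 lie on chromosome 9, in the order Icam1, Jam3, Mcam, Cadm1 and Ncam1, and they did not move together. Over the 603 expressed genes of chromosome 9, the median log2 difference was -0.06, with 9 genes (1.49%) called higher in B16/BL6 and 16 (2.65%) lower. Over all expressed genes, 3.31% were called higher, 3.16% lower and 6.46% in either direction. Mcam lies between genes that were within 2-fold. Cbl, which encodes a ubiquitin ligase and whose nearer end lies 0.249 kb beyond the end of Mcam, was at 13.01 FPKM in B16/BL6 and 12.4 FPKM in B16. Rnf26, on the other side, was at 34.1 FPKM in B16/BL6 and 25.0 FPKM in B16. The neighbours of Ncam1 were within 2-fold too, with Ttc12 at 9.30 FPKM in B16/BL6 and 10.3 FPKM in B16 and Pts at 28.2 FPKM in B16/BL6 and 30.0 FPKM in B16. Of the 10 nearest expressed neighbours of these 5 genes, which lie up to 1231 kb away, 1 passed 2-fold. It was Icam4, which lies 0.618 kb beyond Icam1 and was at 3.76 FPKM in B16/BL6 and 1.04 FPKM in B16, while Icam1 itself stood at about 2 fragments in each. Of the 20 such neighbours of all 10 adhesion genes, 2 passed 2-fold, the other being Nfkbiz, 3358 kb from Alcam, at 1.22 FPKM in B16/BL6 and 5.65 FPKM in B16.

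Bcam lies on chromosome 7, and its nearest expressed neighbours were other adhesion genes of the immunoglobulin type. Pvrl2 lies 6.565 kb away on one side and Pvr 133 kb away on the other. Pvrl2, which encodes nectin-2, was at 21.7 FPKM in B16/BL6 and 12.9 FPKM in B16, a log2 difference of 0.70. Pvr, which encodes the nectin-like poliovirus receptor homologue, was at 14.1 FPKM in B16/BL6 and 23.4 FPKM in B16, a log2 difference of -0.69. These neighbours stood on opposite sides of 0, and the FPKM of Bcam was 4.33-fold higher in B16/BL6. A part of the chromosomal region in the Bcam difference was not tested.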
